A study of Caenorhabditis elegans with 12 samples.

Results

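The genotype by stage comparison asked, for each gene, whether *alh-6(lax105)* changed its level differently in L4 stage animals than in day 3 adults. It used all 12 libraries of the series, and its value for a gene is the difference between *alh-6* and WT in day 3 adults minus the same difference at L4, on the log2(FPKM + 0.1) scale. This value is called the term below: a positive term means that the mutant's level relative to WT was higher in day 3 adults than at L4, and a negative term means that it was lower. FPKM correct a gene's reads for gene length and for the depth of the library. All 46726 genes of the table belonged to the comparison. Of these, 23033 were at 0 in every library, 9196 lay above 0 but under the filter of 1 FPKM in at least 3 libraries, and 14497 were tested.

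Whole animals were sampled in 4 groups of 3 libraries: N2 Bristol (WT) and *alh-6(lax105)* worms, each at L4 and at day 3 of adulthood. Both genotypes were grown from synchronized L1 larvae on concentrated OP50 bacteria and collected 48 hr (L4) or 120 hr (day 3 adult) after the larvae were dropped. The mutation was present in every cell and at every age, in 1 mutant strain. The study describes its experiments as done in biological triplicate, with 3 libraries per group here. The p-values rest on the spread between libraries within groups. This spread was 1 value per gene, pooled over the 4 groups and both stages and drawn toward that of other genes. The stage labels were checked against markers: major sperm proteins summed to 5549 to 6358 FPKM in *alh-6* L4 and 7537 to 7957 FPKM in WT L4 libraries, and to no more than 16.6 FPKM in any day 3 library. Between 19248229 and 23575173 reads per library were counted on genes. In whole worms, fewer cells of a type and less RNA per cell cannot be told apart.

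*C. elegans* larvae shed and rebuild their cuticle at each molt. In every cycle the epidermis secretes a temporary apical matrix, then cuticle collagens in a fixed order, and these genes rise and fall with the molting clock. The last molt separates L4 larvae from adults, which secrete adult collagens, make oocytes, and load them with yolk from vitellogenins made in the intestine. *alh-6* encodes the mitochondrial P5C dehydrogenase, which converts 1-pyrroline-5-carboxylate to glutamate in proline catabolism.

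The effect of *alh-6* differed between the stages for 422 of 14497 genes at an adjusted p under 0.05 and an absolute term of at least 1, which is a 2-fold difference. Genes past both thresholds are called, and genes past the adjusted p alone are said to have passed. The term was more positive for 140 genes (0.966% of those tested) and more negative for 282 genes (1.95%). Without the fold threshold 488 genes passed with a positive term (3.37%) and 582 with a negative term (4.01%). The median term of all tested genes was −0.03. The negative terms were mostly rises at L4. Of the 282 genes, 184 were higher in the mutant at L4 alone (adjusted p under 0.05 for the stage effect), 40 rose at L4 and fell in day 3 adults, 18 were lower in day 3 adults alone, and 39 passed at neither stage on its own. The remaining gene, WBGene00014955, was lower at both stages. Of the 140 genes with a positive term, 82 were lower in the mutant at L4 alone, 34 were higher in day 3 adults alone, 9 fell at L4 and rose in day 3 adults, and 13 passed at neither. *gst-4* and *C15B12.8* were higher at both stages and more so in day 3 adults. As background, 6.68% of tested genes passed as higher and 9.22% as lower at L4, and 1.87% and 2.06% in day 3 adults. These shares, and those for the term, are the background for the counts in the gene lists below.

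**Figure D1:**
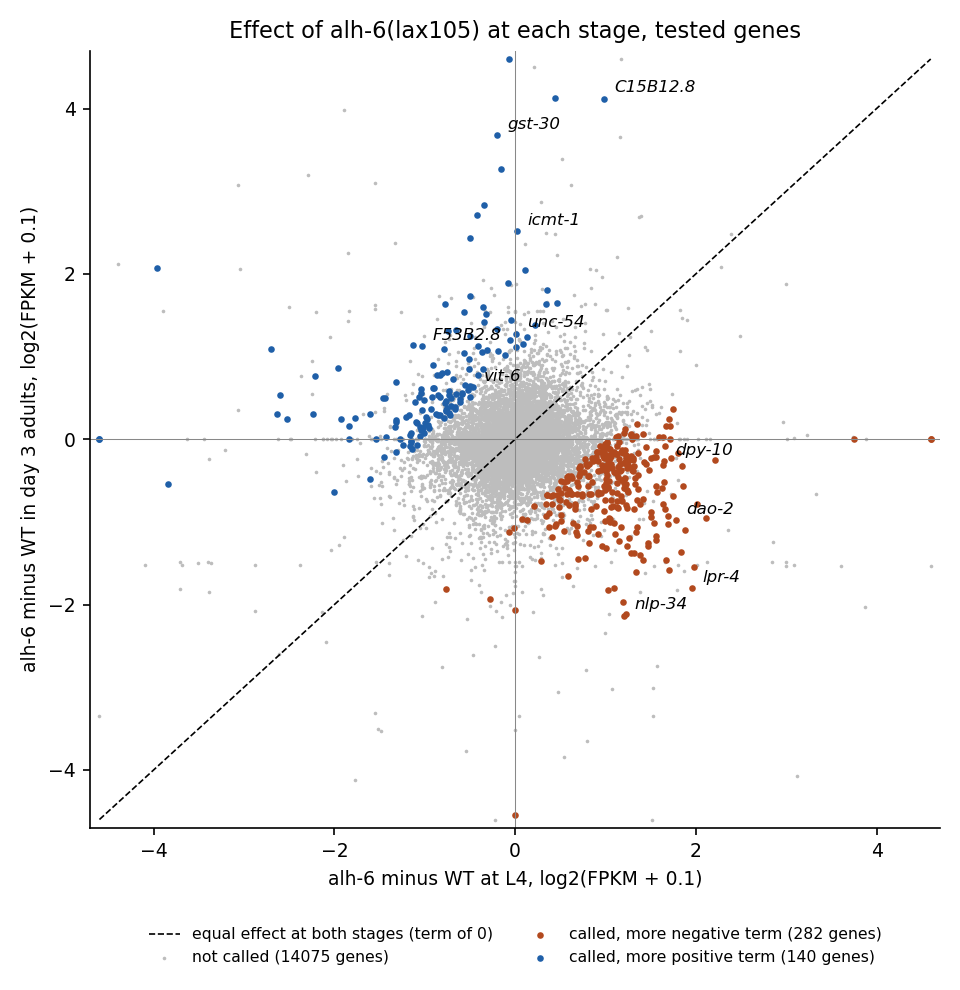
Effect of *alh-6(lax105)* at L4 (x axis) against day 3 adults (y axis), both as *alh-6* minus WT on log2(FPKM + 0.1), 1 point per tested gene; values past the axes are drawn at the edge, and points on the dashed line have a term of 0. The 282 called genes with a negative term lie below the line, most of them to the right of 0, and the 140 with a positive term lie above it.

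Many negative terms rested on genes that were nearly silent in adults. In day 3 adults 183 of the 282 genes with a negative term (64.9%) had a mean under 1 FPKM in both groups, and 102 had a mean under 10 reads per library in both. Among positive terms the first count was 26 of 140 (18.6%), and over all tested genes it was 26.6%. Of the called genes, 24 reached 1 FPKM in the 3 libraries of 1 group and in no other library, so that the filter itself favoured a difference. This count leaves out genes that also reached it in fewer than 3 other libraries, such as *gst-30* and *C15B12.8*. When at least 3 libraries of each stage had to reach 1 FPKM, 9945 genes were tested and 199 were called, 100 with a positive and 99 with a negative term. The negative count also depended on single L4 libraries, falling to 185 without WT L4 replicate 3 and to 180 without *alh-6* L4 replicate 2. All 7 called genes with an absolute term over 4 were noncoding RNA genes. The calls held 12 noncoding RNA genes, 6 of them piRNA genes, and for at least 1 of the 12 no library had more than 1 read. The called genes outside these 12 had terms between −3.77 and 3.88.

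**Figure D2:**
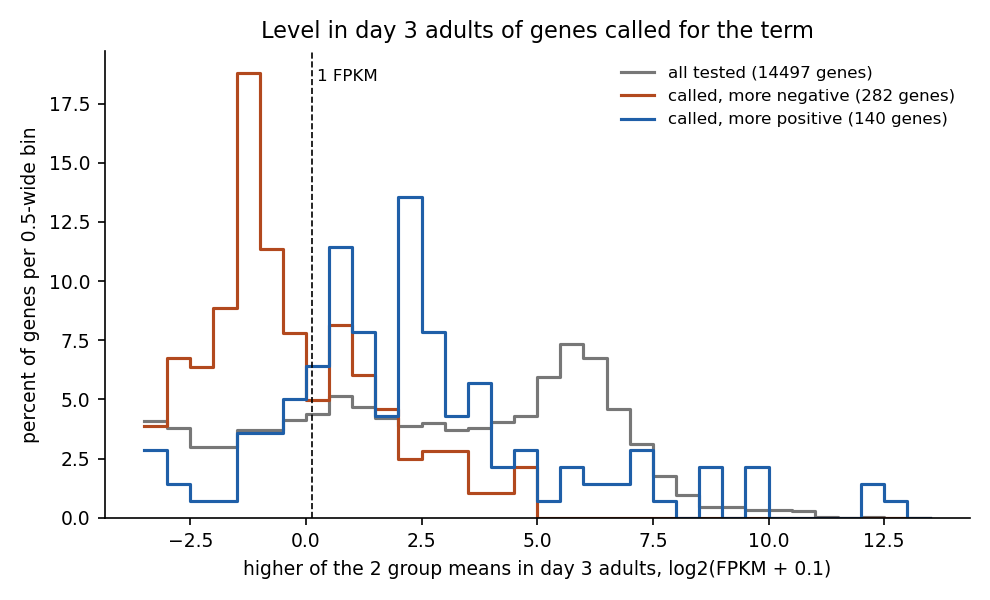
Level of tested genes in day 3 adults, as the higher of the WT and *alh-6* group means on log2(FPKM + 0.1) (x axis), against the percent of genes in each bin (y axis); the dashed line marks 1 FPKM. Of the genes called with a negative term 64.9% lie under 1 FPKM, against 18.6% of those with a positive term and 26.6% of all tested genes.

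The level of the targeted gene did not pass for the term. *alh-6* (WBGene00000112, chromosome II from 1306240 to 1310133 in ce11) was at 68.4, 70.3 and 70.5 FPKM in WT L4 and 60.9, 62.6 and 60.6 FPKM in *alh-6* L4 libraries. In day 3 adults it was at 33.7, 33.9 and 31.8 FPKM in WT and 34.8, 32.000 and 34.03 FPKM in the mutant. The mutant was lower in each L4 library (adjusted p = 0.0333), and the groups overlapped in day 3 adults. Its term was 0.20 (95% interval 0.04 to 0.37; limma, adjusted p = 0.122), and rescaling of the libraries by their median ratio took the adjusted p to 0.037. FPKM do not show the mutation itself, so this level does not check the genotype labels. Of the other 4 genes of proline and P5C metabolism tested, 1 was called. *alh-13*, which encodes the P5C synthase, was at 56.8, 52.2 and 48.2 FPKM in WT L4 and 123, 111 and 130.1 FPKM in *alh-6* L4 libraries. The day 3 levels were 7.18, 7.97 and 6.92 FPKM in WT and 8.12, 8.05 and 7.83 FPKM in mutant libraries (term −1.09, standard error 0.117; limma, adjusted p = 0.000347). Every mutant library was above every WT library at L4, and the groups overlapped in day 3 adults. *pycr-1*, a P5C reductase, was at 70.1, 64.6 and 64.03 FPKM in WT L4 and 107, 103 and 116 FPKM in *alh-6* L4 libraries, with no overlap (adjusted p = 0.00602). Its term of −0.56 did not pass (adjusted p = 0.116), but did with a pseudocount of 1 (adjusted p = 0.0392) and without *alh-6* day 3 replicate 3 (adjusted p = 0.0266). *prdh-1*, the proline dehydrogenase, and *pycr-4* had terms of 0.23 (adjusted p = 0.506) and 0.02 (adjusted p = 0.926).

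Molting and apical matrix genes had the most negative terms among the lists with more than 10 tested members. Of 31 tested, 17 passed with a negative term, 15 were called, and 1 (*egg-6*) passed with a positive term. The median term of the list was −1.47, from a median effect of 1.13 at L4 and −0.31 in day 3 adults. At L4 20 members were higher in the mutant, and in day 3 adults 6 were lower. The lipocalin-related genes *lpr-3*, *lpr-4*, *lpr-5* and *lpr-6*, which encode secreted proteins of the apical matrix and sit within a stretch of chromosome X, were all called, with terms of −2.81, −3.77, −2.98 and −3.53. *lpr-4* (WBGene00012257, chromosome X from 11065126 to 11066811) was at 3.02, 3.17 and 1.99 FPKM in WT L4 and 10.99, 9.24 and 12.04 FPKM in *alh-6* L4 libraries. WT day 3 adults had 0.352, 0.648 and 0.512 FPKM and mutants of that age 0.0734, 0.18 and 0 FPKM, which were 10, 19 and 16 reads and 2, 5 and 0 reads (term −3.77, standard error 0.483; limma, adjusted p = 0.000925). The genotypes did not overlap at either stage, and their order was reversed. The size of this term depends on the pseudocount, being −2.14 with 1 FPKM and −5.20 with 0.01 FPKM. *lpr-6* (WBGene00012255, chromosome X from 11059994 to 11061871) rose from 2.23 ± 0.471 FPKM to 8.99 ± 0.528 FPKM at L4 (SD, n = 3). Its day 3 level fell from 0.453 ± 0.174 FPKM to 0.0999 ± 0.0889 FPKM (SD, n = 3; term −3.53, standard error 0.493; limma, adjusted p = 0.00148).

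The zona pellucida domain genes *noah-1* (term −2.72) and *noah-2* (−2.17), which encode apical matrix proteins needed for molting, and the fibrillin-like *fbn-1* (−2.15) were also called. *mlt-8* (WBGene00021095, chromosome II from 569210 to 572110), a gene whose loss gives molting defects, kept a level above 0 in each library. It was at 60.02, 52.8 and 50.9 FPKM in WT L4 and 112.3, 118 and 129.6 FPKM in *alh-6* L4 libraries. At day 3 the WT libraries held 2.2, 1.77 and 1.95 FPKM and the *alh-6* libraries 1.36, 0.763 and 1.13 FPKM (term −1.97, standard error 0.229; limma, adjusted p = 0.00051). The mutant was above WT in every L4 library and below WT in every day 3 library. The other called members, *mlt-9*, *mlt-10*, *mlt-11*, *mltn-9*, *acn-1*, *let-653* and *sym-1*, had terms between −2.67 and −1.09. With the pseudocount of 1 or 0.01 the term of *lpr-6* was −2.04 or −4.84. Of the 15 called members, 8 were under 1 FPKM in both day 3 groups. With 1 FPKM required at each stage, 15 members were tested and 8 passed with a negative term.

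**Figure D3:**
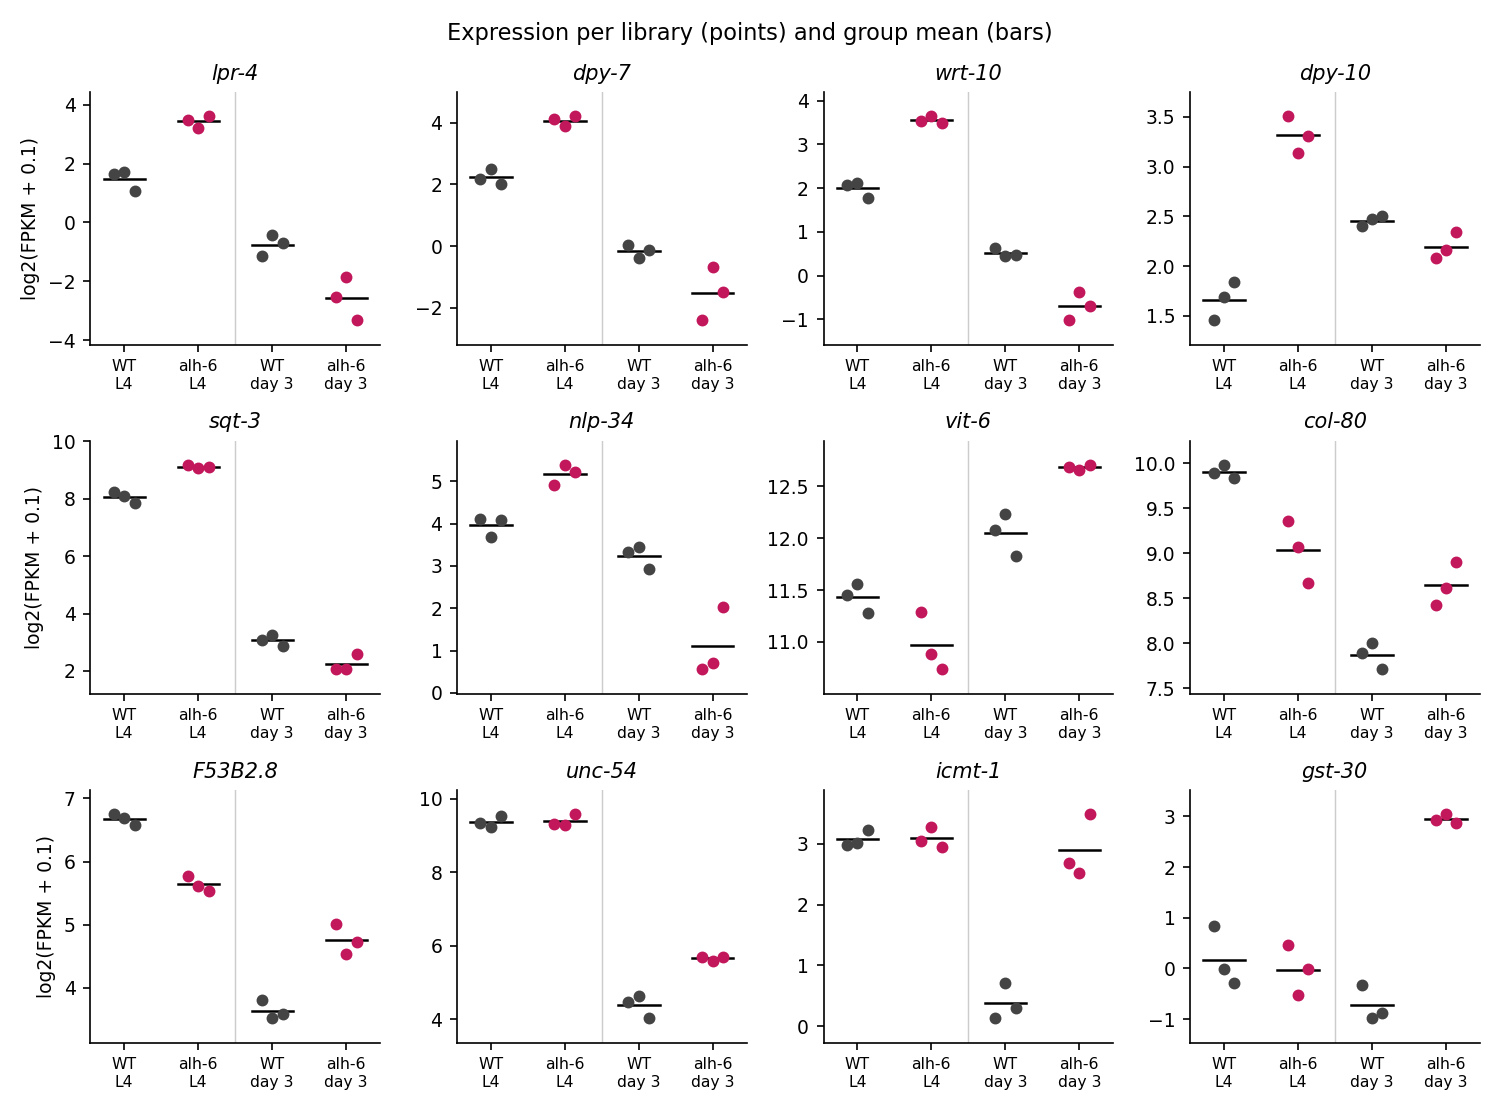
Expression of 12 genes as log2(FPKM + 0.1) on the y axis of each panel, with its own range; points are libraries (grey WT, red *alh-6*) and bars are means of 3. In *lpr-4*, *dpy-7*, *wrt-10*, *sqt-3* and *nlp-34* the mutant lies above WT at L4 and below it in day 3 adults, *col-80* and *F53B2.8* show the reverse order, as do the means of *vit-6*, whose L4 libraries overlap, and *dpy-10* shows its largest difference at L4 and *unc-54*, *icmt-1* and *gst-30* in day 3 adults.

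The 6 furrow collagens, which form the annular furrows of the cuticle and are expressed together, were all called with negative terms, with a median of −2.28 and a range from −3.21 to −1.46. All 6 were higher in the mutant at L4, and 1 (*dpy-7*) was lower in day 3 adults. Their summed level was 20.8 to 26.4 FPKM in WT L4 and 72.9 to 92.3 FPKM in *alh-6* L4 libraries, and 7.71 to 8.48 against 4.81 to 6.63 FPKM in day 3 adults. *dpy-7* (WBGene00001069, chromosome X from 7536467 to 7537792) was at 4.45, 5.55 and 3.92 FPKM in WT L4 and 17.2, 14.8 and 18.4 FPKM in *alh-6* L4 libraries. By day 3 of adulthood the values were 0.932, 0.657 and 0.809 FPKM in WT animals and 0.0884, 0.519 and 0.256 FPKM in mutants (term −3.21, standard error 0.474; limma, adjusted p = 0.00208). The groups did not overlap at either stage. *dpy-10* (WBGene00001072, chromosome II from 6710149 to 6712227) was the 1 furrow collagen measured above 1 FPKM at both stages. It was at 2.64, 3.12 and 3.49 FPKM in WT L4 and 11.2, 8.69 and 9.82 FPKM in *alh-6* L4 libraries. In day 3 adults it was at 5.19, 5.44 and 5.56 FPKM in WT and 4.14, 4.39 and 4.96 FPKM in the mutant (term −1.91, standard error 0.196; limma, adjusted p = 0.000233). Its effect was 1.65 at L4, and the day 3 effect of −0.26 did not pass (adjusted p = 0.298). The annotation places the exons of *T14B4.19*, on the same strand, over 48.96% of the exon bases of *dpy-10*, so reads of these genes may not be separable, and *T14B4.19* has no values of its own here.

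Of 14 other collagens known by their body shape or blister phenotypes, 6 passed and 4 were called, all with negative terms (*sqt-3*, *sqt-2*, *lon-3* and *rol-6*), and the median term was −1.07. At L4 11 of them were higher in the mutant. *sqt-3* (WBGene00005018, chromosome V from 12352745 to 12354320) was at 298, 275 and 231 FPKM in WT L4 and 571, 539 and 554 FPKM in *alh-6* L4 libraries. The day 3 levels were 8.44, 9.48 and 7.16 FPKM in WT and 4.06, 4.12 and 5.98 FPKM in mutant libraries (term −1.88, standard error 0.208; limma, adjusted p = 0.000526). The mutant was higher in all L4 libraries and lower in all day 3 libraries. The list count was sensitive to single libraries, with 3 members passing without WT L4 replicate 2 or 3, *alh-6* L4 replicate 2 or 3, or *alh-6* day 3 replicate 3, and 1 passing by limma-voom on recovered reads.

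The *col* genes, the large family of numbered cuticle collagens, split in both directions. Of 114 tested, 18 passed with a positive and 13 with a negative term, 10 and 8 of them called, and the median term was −0.13. The members with a negative term were high at L4 and under 5 FPKM in adults. *col-73* was at 1375 FPKM in WT L4 and 2804 FPKM in *alh-6* L4, but at 2.14 and 1.84 FPKM in day 3 adults (term −1.24). The pseudocount and the test decided how many passed: 40 *col* genes had a passing negative term with a pseudocount of 1, 6 when 1 FPKM was required at each stage, and 3 by limma-voom on recovered reads. Of the members with a positive term, all but *col-93*, *col-94* and *col-135* were lower in the mutant at L4, and all were above 3 FPKM in WT day 3 adults. *col-80* (WBGene00000656, chromosome II from 10707201 to 10708287) was at 952, 1006 and 912 FPKM in WT L4 and 657, 539 and 406 FPKM in *alh-6* L4 libraries. WT day 3 adults had 238, 257 and 209 FPKM and mutants of that age 344, 391 and 479 FPKM (term 1.65, standard error 0.23; limma, adjusted p = 0.00224). The genotypes did not overlap at either stage and changed order between them. *col-142* (term 1.81, standard error 0.277; limma, adjusted p = 0.00374) and *col-93* (term 1.76, standard error 0.293; limma, adjusted p = 0.00722) had the largest positive terms of the family. *col-93* was at 35.9, 37.6 and 23.1 FPKM in the WT day 3 libraries and 63.9, 86.9 and 107 FPKM in the mutant ones, with no overlap, and its L4 effect of −0.35 did not pass (adjusted p = 0.304). *col-19*, the best known adult-specific collagen, passed with a term of 0.78 (adjusted p = 0.0218) and was lower in the mutant at L4 (1359 FPKM in WT against 911 FPKM, means of 3).

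Hedgehog-related and patched-related genes, a nematode family expressed largely in the epidermis, also had mostly negative terms. Of 57 tested, 21 passed with a negative and 6 with a positive term, 17 and 2 were called, and the median was −0.84. The passing shares were 36.8% negative and 10.5% positive, against 4.01% and 3.37% of all tested genes. At L4 29 members were higher and 5 lower in the mutant, against 6.68% and 9.22% of all tested genes. *wrt-10* (WBGene00006956, chromosome II from 7533262 to 7534563), a warthog gene, was at 4.12, 4.27 and 3.33 FPKM in WT L4 and 11.4, 12.4 and 11.1 FPKM in *alh-6* L4 libraries. At day 3 the WT libraries held 1.46, 1.27 and 1.28 FPKM and the *alh-6* libraries 0.392, 0.672 and 0.521 FPKM (term −2.77, standard error 0.262; limma, adjusted p = 0.000136). The groups did not overlap at either stage. The ground-like gene *grl-21* went the other way. It was at 78.4, 78.5 and 79.8 FPKM in WT L4 and 39.9, 40.7 and 28.5 FPKM in *alh-6* L4 libraries, and at 1, 3 and 1 reads in WT and 3, 7 and 5 reads in *alh-6* day 3 libraries (term 2.27, standard error 0.376; limma, adjusted p = 0.00386). Its lower level at L4 did not overlap with WT, which was a condition for naming it. Its day 3 values rest on few reads, so that its term was 1.41 with a pseudocount of 1. Of the 17 and 2 called members together, 16 were under 1 FPKM in both day 3 groups, and with 1 FPKM required at each stage 6 of 21 tested passed with a negative term. The positive count was 3 without *alh-6* L4 replicate 2, WT day 3 replicate 1 or 3, or *alh-6* day 3 replicate 2.

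Among 24 regulators of larval timing and molting, 4 passed with a negative and 1 with a positive term. These shares were 16.7% and 4.17%, against 4.01% and 3.37% of all tested genes, so the positive share was near background. *bed-3*, a zinc finger factor needed for molting, rose at L4 from 4.56, 4.04 and 3.46 FPKM in WT to 8.33, 8.75 and 9.52 FPKM in *alh-6* libraries. By day 3 of adulthood the values were 1.61, 1.73 and 1.82 FPKM in WT animals and 1.65, 1.4 and 1.47 FPKM in mutants, where the groups overlapped (term −1.31, standard error 0.209; limma, adjusted p = 0.00311). *nhr-25*, a nuclear receptor of the epidermis, was also called (term −1.25, standard error 0.316; limma, adjusted p = 0.0312). *myrf-1* (−0.76) and *pan-1* (−0.84), which is also on the molting list, passed below 2-fold, and *lin-41* passed with a positive term of 0.42. Epidermal antimicrobial peptides went both ways. Of 13 tested, 2 were called with negative terms and *cnc-8* passed with a positive one (0.60), and at L4 4 were higher and 4 lower in the mutant. Their sum was lower in the mutant at L4, at 222 to 277 FPKM against 300.2 to 314 FPKM in WT, and at day 3, at 93.3 to 127 against 142 to 164 FPKM. *nlp-34* (WBGene00015046, chromosome V from 3978825 to 3979134) had the largest absolute term of the called protein-coding genes with a group mean of at least 5 FPKM at both stages. It was at 17.2, 12.7 and 17.002 FPKM in WT L4 and 29.9, 41.4 and 36.96 FPKM in *alh-6* L4 libraries. In day 3 adults it was at 9.97, 10.8 and 7.52 FPKM in WT and 1.37, 1.54 and 3.98 FPKM in the mutant (term −3.34, standard error 0.473; limma, adjusted p = 0.00297). The mutant was higher in each L4 library and lower in each day 3 library. *cnc-4* had the same order with a term of −1.42 (adjusted p = 0.00211).

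Opposite effects at the 2 stages, each past an adjusted p of 0.05 and with a mean of at least 1 FPKM in all 4 groups, were found for 22 called genes. The mutant rose at L4 and fell in adults for 14 of them, and showed the reverse for 8. *dao-2* (WBGene00000928, chromosome II from 4562950 to 4563461) was at 23.1, 22.8 and 20.1 FPKM in WT L4 and 76.9, 70.05 and 80.5 FPKM in *alh-6* L4 libraries. The day 3 levels were 3.6, 3.15 and 3.99 FPKM in WT and 1.65, 1.44 and 2.3 FPKM in mutant libraries (term −2.76, standard error 0.211; limma, adjusted p = 4.98e-05). No mutant value of *dao-2* lay within the WT range of its stage. *asp-12* (WBGene00017678, chromosome V from 8269210 to 8272056), an aspartyl protease gene, was at 23.8, 21.8 and 20.8 FPKM in WT L4 and 69.7, 63.9 and 62.3 FPKM in *alh-6* L4 libraries. WT day 3 adults had 15.97, 14.1 and 15.8 FPKM and mutants of that age 8.7, 11.1 and 11.4 FPKM (term −2.12, standard error 0.146; limma, adjusted p = 4.40e-05). Both differences exceeded the spread between libraries. *F41F3.3* was among the most abundant of the 22, at 1505 FPKM in WT L4 and 2734 FPKM in *alh-6* L4, and at 5.65 and 2.67 FPKM in day 3 adults (means of 3; term −1.92, standard error 0.26; limma, adjusted p = 0.00239). In the opposite order, *F53B2.8* (WBGene00009957, chromosome IV from 12526231 to 12527396) was at 107, 104 and 95.7 FPKM in WT L4 and 54.7, 49.1 and 46.1 FPKM in *alh-6* L4 libraries. At day 3 the WT libraries held 13.8, 11.3 and 11.9 FPKM and the *alh-6* libraries 32.2, 23.2 and 26.2 FPKM (term 2.16, standard error 0.161; limma, adjusted p = 4.98e-05). The mutant level was below every WT library at L4 and above every WT library in day 3 adults.

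**Figure D4:**
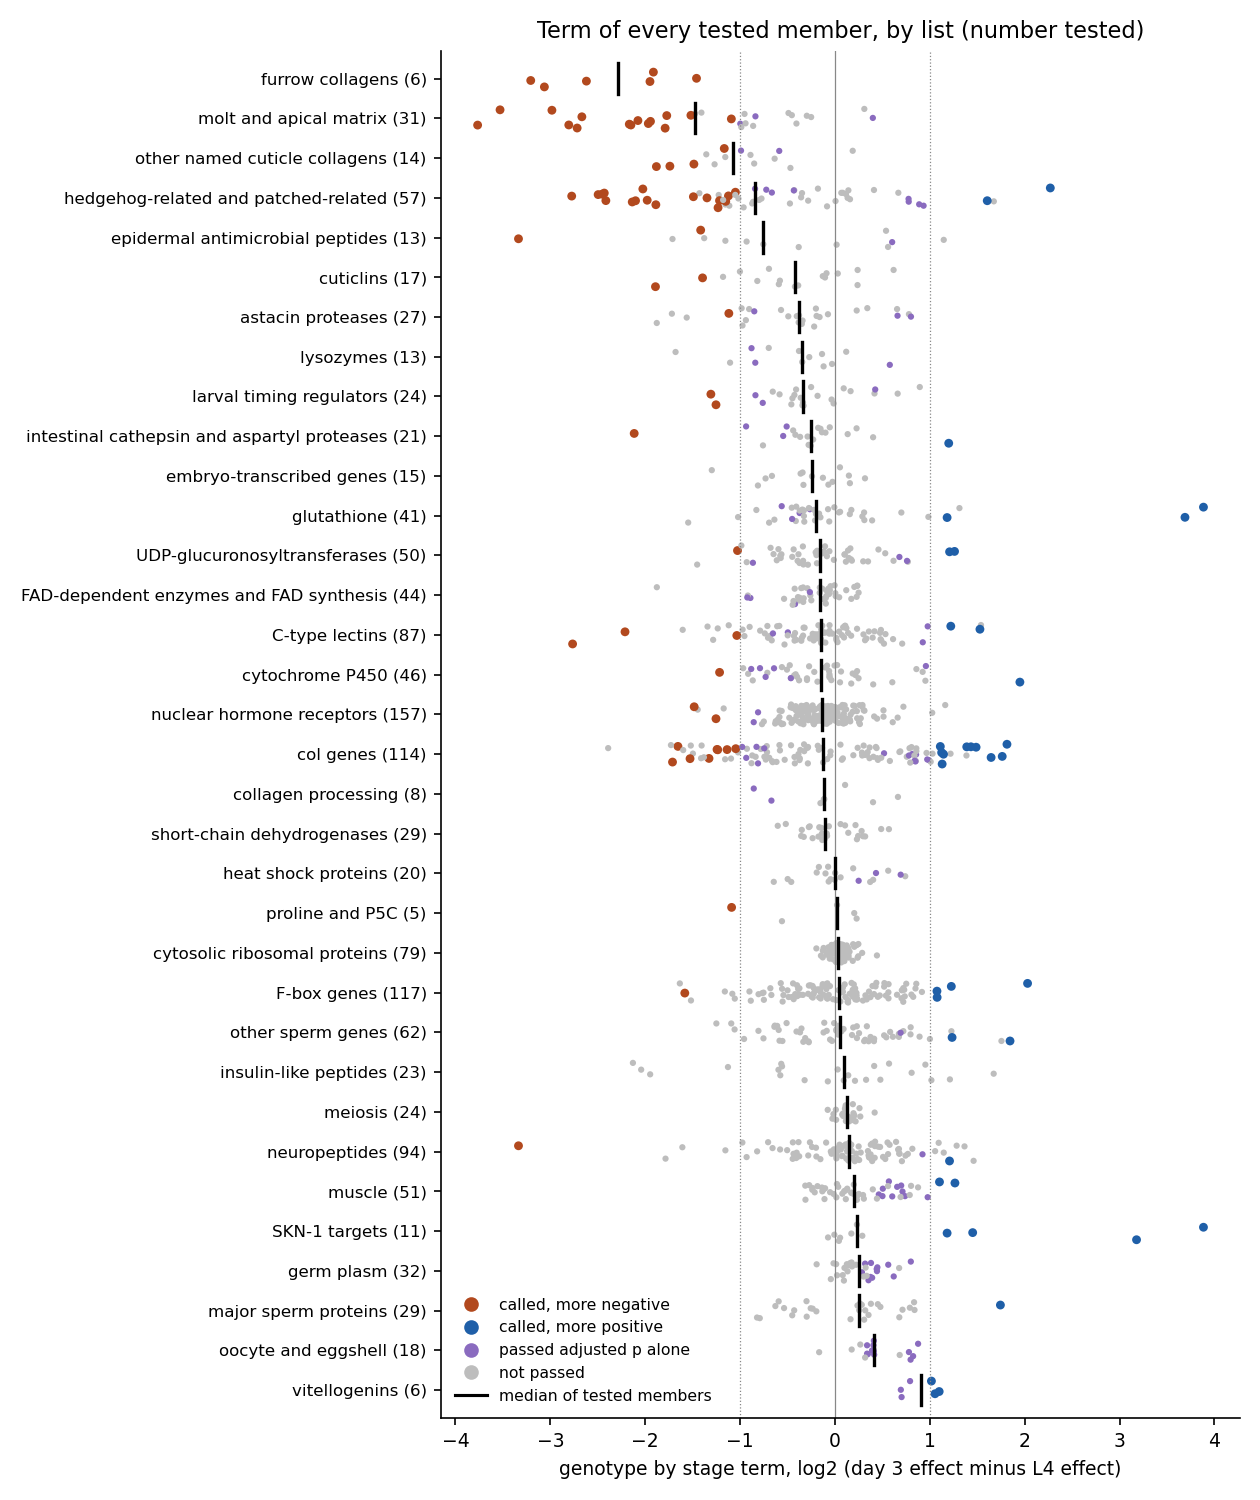
Genotype by stage term (x axis, log2) of every tested member of 34 gene lists (y axis, number tested in brackets), sorted by the list median, which is the black bar; colours mark called members, members that passed the adjusted p alone, and the rest. Medians run from −2.28 for the furrow collagens to 0.90 for the vitellogenins, and the ribosomal protein genes lie close to 0.

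Vitellogenin genes had positive terms. All 6 passed, from 0.69 to 1.10 with a median of 0.90, and *vit-2*, *vit-5* and *vit-6* were called. At L4 5 were lower in the mutant (all but *vit-4*), and in day 3 adults *vit-6* alone was higher past the test. Their summed level was 4696 to 5660.5 FPKM in WT L4 and 3168 to 4633 FPKM in *alh-6* L4 libraries, and 10873 to 13946 FPKM in WT and 17655 to 17956 FPKM in *alh-6* day 3 libraries. The summed levels did not overlap at either stage, lower in the mutant at L4 and higher in day 3 adults. The sums took 4.85 to 6.21% of the reads of WT day 3 libraries and 7.81 to 7.93% of *alh-6* day 3 libraries. *vit-6* (WBGene00006930, chromosome IV from 8261157 to 8266459) was at 2806, 3022 and 2487 FPKM in WT L4 and 2499, 1886 and 1706 FPKM in *alh-6* L4 libraries. By day 3 of adulthood the values were 4326, 4825 and 3638 FPKM in WT animals and 6617, 6449 and 6663 FPKM in mutants (term 1.10, standard error 0.189; limma, adjusted p = 0.00513). At L4 the highest mutant library, replicate 1, lay just above the lowest WT library, and in day 3 adults the mutant libraries lay above all WT libraries. *vit-5* (term 1.05, standard error 0.168; limma, adjusted p = 0.00327) and *vit-2* (term 1.02, standard error 0.188; limma, adjusted p = 0.00774) were also called, and *vit-1*, *vit-3* and *vit-4* had terms of 0.69, 0.70 and 0.79. Some of these genes are near-identical copies, and their reads may be shared among them. Between 4 and 6 of the 6 passed when single libraries were left out.

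Oocyte, eggshell and germ plasm genes were lower in the mutant at L4 and did not pass in day 3 adults by limma. Of 18 oocyte and eggshell genes, 17 were lower at L4, and 12 passed with a positive term. Of 32 germ plasm genes, 20 were lower at L4, and 12 passed with a positive term. The positive shares of these lists were 66.7% and 37.5%, against 3.37% of all tested genes, of which 9.22% were lower at L4. No member of either list reached 2-fold. The medians were 0.41 and 0.25. *cpg-1*, a chondroitin proteoglycan of the eggshell, was at 250.5, 259 and 263 FPKM in WT L4 and 161, 173 and 183 FPKM in *alh-6* L4 libraries. In day 3 adults it was at 1715, 1881 and 1662 FPKM in WT and 1980.2, 1961 and 2167 FPKM in the mutant (term 0.80, standard error 0.0951; limma, adjusted p = 0.000579). The mutant was lower in every L4 library and higher in every day 3 library, where the effect did not pass (adjusted p = 0.0903). The counts depended on single libraries: 5 to 7 oocyte and eggshell genes passed without WT L4 replicate 2 or 3, *alh-6* L4 replicate 1, any 1 WT day 3 library, or *alh-6* day 3 replicate 2, and 7 germ plasm genes passed when WT L4 replicate 3, the first WT day 3 library or *alh-6* day 3 replicate 2 was left out. For the day 3 effect, 3 oocyte and eggshell and 3 germ plasm genes had an unadjusted p under 0.05, and 3 and 0 passed by limma-voom on recovered reads. None of 24 meiosis genes passed for the term by limma (3 at an unadjusted p under 0.05, 0 by limma-voom), although 9 were lower in the mutant at L4. Over all 14497 tested genes, 3268 had an unadjusted p under 0.05 for the term. Major sperm protein genes summed to less in the mutant at L4 (values above), where 26 of 29 passed by limma-voom but 0 by limma, also at an unadjusted p under 0.05. The limma fit shared its spread per gene across all 12 libraries of both stages, and the part of this in the L4 result was not tested. Major sperm protein genes were nearly absent in day 3 adults, with 28 of 29 under 1 FPKM in both groups, so that their 1 call, *msp-38* (term 1.74), rested on 0 to 4 reads in each day 3 library. *nspd-4*, another sperm gene, was likewise at 0, 0 and 0 reads in WT and 1, 1 and 2 reads in the mutant in day 3 adults. Since 1 group was at 0, its term of 1.85 depends on the pseudocount.

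Sums of marker lists for these cell types and for the epidermis differed from WT in both directions at L4. At L4 the mutant had higher molting genes (539 to 604 against 331 to 344 FPKM in sum), lower oocyte and eggshell genes (1559 to 1674 against 2131 to 2323 FPKM), lower vitellogenins and lower major sperm proteins, with no overlap of the genotypes in any of these sums. Intestinal cathepsin and aspartyl proteases, also used as intestine markers, went the other way from the vitellogenins at L4. They summed to 11498 to 14078 FPKM in the mutant against 8959 to 10804 FPKM in WT, also without overlap. How far the worms of each genotype had advanced within L4 was not measured, and its part in the terms was not tested. Genes first transcribed in embryos, which adult worms carry in the uterus, summed to 103 to 114 FPKM in WT and 81.4 to 89.99 FPKM in mutant day 3 libraries, with no overlap, while at L4 the sums overlapped. None of the 15 tested members of that list passed for the term by limma (1 at an unadjusted p under 0.05, against 3268 of all 14497 tested genes, and 0 by limma-voom). For the day 3 effect, 2 of the 15 passed as lower and 0 as higher, with a median effect of −0.49. Of all tested genes 2.06% passed as lower in day 3 adults. Whether a different number of embryos contributed to the day 3 effects was not tested.

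**Figure D5:**
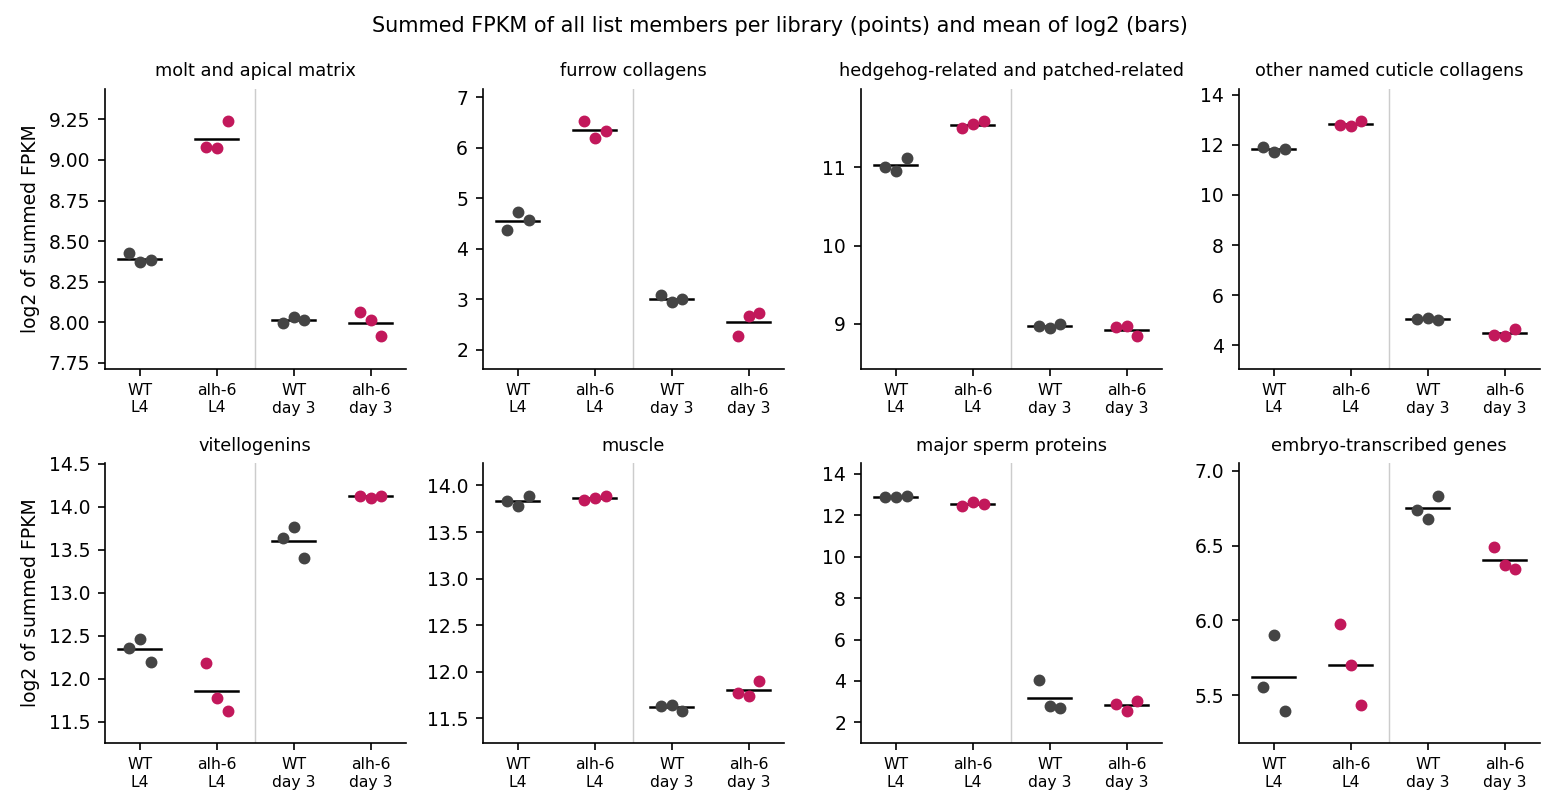
Summed FPKM of all members of 8 lists, as log2 on the y axis of each panel, with its own range; points are libraries (grey WT, red *alh-6*) and bars are means of 3. Furrow collagens sum to 20.8 to 26.4 FPKM in WT and 72.9 to 92.3 FPKM in *alh-6* L4 libraries, vitellogenins are lower at L4 in the mutant and higher in adults, and embryo-transcribed genes are lower in the mutant in day 3 adults alone.

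Muscle genes with a term past the test differed in day 3 adults. Of 51 genes of muscle structure and contraction, 12 passed with a positive term, none with a negative one, and *unc-54* and *unc-15* were called. The median term was 0.20. In day 3 adults 23 members were higher in the mutant, and at L4 3 were higher and 1 was lower. Of all tested genes 3.37% passed with a positive term and 1.87% were higher in day 3 adults. At L4 6.68% of all tested genes were higher and 9.22% lower, so the muscle counts at L4 were not above background. None of the 12 passed at L4. *unc-54* (WBGene00006789, chromosome I from 14855901 to 14863482), the major myosin heavy chain of body wall muscle, was at 643, 602 and 739 FPKM in WT L4 and 631, 617 and 758 FPKM in *alh-6* L4 libraries. The day 3 levels were 22.2, 24.8 and 16.2 FPKM in WT and 52.2, 47.8 and 51.8 FPKM in mutant libraries (term 1.26, standard error 0.197; limma, adjusted p = 0.00368). The groups overlapped at L4 and were fully apart in day 3 adults. *unc-15*, the paramyosin gene, had a term of 1.10 (standard error 0.121; limma, adjusted p = 0.000383). The other members that passed, among them *mlc-3*, *act-4*, *tnt-2* and *lev-11*, had terms between 0.46 and 0.98. Between 11 and 13 members passed under each setting tried.

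SKN-1 is the transcription factor that drives the oxidative stress response. Of 11 SKN-1 targets tested, 4 were called, all with positive terms (*gst-30*, *F56D5.3*, *sdz-8* and *gst-4*). This is 36.4% of the list, against 0.966% of all tested genes, and the median term was 0.23. The mutant was higher for 6 SKN-1 targets in day 3 adults and for 2 at L4, against 1.87% and 6.68% of all tested genes. *gst-30* (WBGene00001778, chromosome II from 4933883 to 4935054), a glutathione S-transferase gene, was at 1.68, 0.887 and 0.717 FPKM in WT L4 and 1.27, 0.593 and 0.891 FPKM in *alh-6* L4 libraries. WT day 3 adults had 0.698, 0.406 and 0.444 FPKM and mutants of that age 7.56, 8.12 and 7.24 FPKM, or 10, 6 and 7 and 104, 114 and 103 reads (term 3.88, standard error 0.449; limma, adjusted p = 0.000509). It was the largest term among protein-coding genes, and only the mutant day 3 libraries stood apart. Elsewhere *gst-30* reached 1 FPKM only in WT L4 replicate 1 and *alh-6* L4 replicate 1. It thus passed the filter only through the group where it was high. *gst-4* was higher in the mutant at both stages, at 33.4, 38.3 and 35.5 FPKM in WT and 48.2, 50.1 and 49.3 FPKM in *alh-6* L4 libraries. At day 3 the WT libraries held 29.1, 31.6 and 28.6 FPKM and the *alh-6* libraries 98.97, 86.4 and 94.96 FPKM (term 1.182, standard error 0.0974; limma, adjusted p = 7.04e-05). Neither stage had an overlap, and the difference was larger in adults. Over all 41 glutathione genes, *gst-30*, *gst-4* and *gsto-2* (term 3.69) passed with a positive term and 4 passed with a negative term below 2-fold, and the median was −0.20. The mutant was higher for 8 and lower for 2 of them in day 3 adults, and higher for 9 at L4. When 1 FPKM was required at each stage, 8 SKN-1 targets were tested and 2 passed.

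Other positive terms came from a rise in adult mutants (*icmt-1*, *C15B12.8*, *F56D6.9* and *cyp-14A3*) or from a fall at L4. *icmt-1* (WBGene00017673, chromosome I from 4901918 to 4903264), which encodes an isoprenylcysteine carboxyl methyltransferase, was at 7.8, 8.01 and 9.28 FPKM in WT L4 and 8.14, 9.65 and 7.66 FPKM in *alh-6* L4 libraries. By day 3 of adulthood the values were 0.993, 1.54 and 1.13 FPKM in WT animals and 6.32, 5.63 and 11.1 FPKM in mutants (term 2.50, standard error 0.325; limma, adjusted p = 0.000988). The groups overlapped at L4 alone. *C15B12.8* (WBGene00015788, chromosome X from 6474264 to 6476645) was at or under 1.02 FPKM in all other libraries and at 12.2, 10.8 and 13.5 FPKM in the mutant day 3 libraries (term 3.14, standard error 0.382; limma, adjusted p = 0.00064). Of the other libraries only *alh-6* L4 replicate 1 reached 1 FPKM, so *C15B12.8* passed the filter only through the group where it was high. *F56D6.9* had at most 1 read in any L4 library, and was at 5.31, 4.12 and 3.7 FPKM in WT and 16.4, 19.9 and 41.6 FPKM in *alh-6* day 3 adults (term 2.94, standard error 0.58; limma, adjusted p = 0.0108). Its mutant day 3 values were all above WT but spread more than 2-fold among themselves, and with all *alh-6* L4 libraries at 0 the term depends on the pseudocount. An exon of *oac-21* overlaps it, with at most 1 read in any library. *fbxc-58* and *F59C6.16* fell at L4. *fbxc-58*, an F-box gene, was at 8.48, 8.74 and 6.5 FPKM in WT L4 and 3.03, 2.29 and 1.6 FPKM in *alh-6* L4 libraries and overlapped in day 3 adults (term 2.03, standard error 0.404; limma, adjusted p = 0.0111). *F59C6.16* was at 15.6, 13.2 and 9.88 FPKM in WT L4 and 5.68, 7.39 and 3.02 FPKM in the mutant (term 2.01, standard error 0.433; limma, adjusted p = 0.0185). In day 3 adults *F59C6.16* was at 5.32, 5.95 and 5.76 FPKM in WT and 7.25, 8.15 and 13.2 FPKM in the mutant. These did not overlap, but the day 3 effect of 0.69 did not pass (limma, adjusted p = 0.223). *ugt-13*, a UDP-glucuronosyltransferase gene, was at 10.3, 11.5 and 9.07 FPKM in WT L4 and 7.11, 6.78 and 4.85 FPKM in *alh-6* L4 libraries (term 1.26, standard error 0.263; limma, adjusted p = 0.0137). Its day 3 levels were 0.924, 1.26 and 1.08 FPKM in WT and 1.63, 1.39 and 1.83 FPKM in the mutant. These did not overlap, but the day 3 effect of 0.53 did not pass (limma, adjusted p = 0.125). The L4 groups of these 3 genes did not overlap. The calls of *nspb-4* (term 2.98), at 0 reads in every WT day 3 library, and of *cyp-14A3* (1.95), a cytochrome P450 gene, were lost under several settings. *cyp-14A3* reached 1 FPKM in the *alh-6* day 3 libraries alone, at 1.65, 1.02 and 2.01 FPKM, and so entered the test only through the group where it was high.

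Further genes with negative terms were higher in mutant L4 libraries than in WT, except *nhr-44*. *rml-3* was at 4.98, 6.47 and 4.98 FPKM in WT and 11.3, 12.797 and 14.9 FPKM in *alh-6* L4 libraries, and at 0.851, 0.825 and 1.31 against 0.205, 0.201 and 0.066 FPKM in day 3 adults (term −3.35, standard error 0.369; limma, adjusted p = 0.000383). *Y37A1B.7* (term −3.29, standard error 0.43; limma, adjusted p = 0.00103) and the C-type lectin gene *clec-229* (term −2.77, standard error 0.366; limma, adjusted p = 0.00112) had the same order of means, with no more than 4 reads in any day 3 library. All *alh-6* day 3 libraries were at 0 for *clec-229*, and its term was −1.51 with a pseudocount of 1 and −5.38 with 0.01. Between these pseudocounts the term also went from −1.89 to −3.95 for *rml-3* and from −1.74 to −5.46 for *Y37A1B.7*. *cut-2*, a cuticlin of the cuticle, was at 317, 280.5 and 276 FPKM in WT and 526, 494 and 524 FPKM in *alh-6* L4 libraries, and at 2.13, 2.34 and 1.53 against 1.05, 0.688 and 0.962 FPKM in day 3 adults (term −1.89, standard error 0.218; limma, adjusted p = 0.000527). *txdc-12.1*, a thioredoxin domain gene, rose at L4 from 119 ± 11.5 to 267 ± 22.9 FPKM (SD, n = 3; term −1.54, standard error 0.141; limma, adjusted p = 0.000136). The calls of *nhr-44* (−1.48), a nuclear hormone receptor gene whose L4 libraries overlapped, and *nas-36* (−1.12), an astacin protease gene, did not hold under most other settings. Members of other lists also passed, in heat shock proteins (3 of 20 passed, all positive), FAD-dependent enzymes (4 of 44, all negative), cytochromes P450 (6 negative and 2 positive of 46) and nuclear hormone receptors (4 of 157, all negative). Over all tested genes 3.37% passed with a positive and 4.01% with a negative term. The nuclear hormone receptors, at 2.55% negative, lay below that share, and the cytochromes P450, at 4.35% positive, lay near it. None passed among 79 ribosomal protein genes, 29 short-chain dehydrogenases and 23 insulin-like peptides by limma, where 1, 8 and 5 had an unadjusted p under 0.05 and 0, 2 and 0 passed by limma-voom. Of all 14497 tested genes 3268 had such an unadjusted p, so these counts are not an excess by themselves. The 34 lists together held 102 of the 422 called genes.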

How the data were processed

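RNA-seq libraries of whole worms were described in 3 deposited tables. FPKM of each gene in each library were deposited by the authors; per the labels the processing notes name CASAVA 1.8, Bowtie2 2.2.3, TopHat2 2.0.12, HTSeq 0.6.1, DESeq 1.18.0 and build ce11, without roles. Whether counting used strand is not given in the sources used here. A further pair of tables, 1 per stage, held a normalized read signal per gene that the authors deposited as group means, and the authors' own fold changes, p-values and calls, which were not used. Joining these means with the FPKM recovered whole reads for 100% of values above 0 (within 0.01 of a whole number).

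Terms were fitted with limma 3.58.1 in R 4.3.3 (group means, trended and robust empirical Bayes) on log2(FPKM + 0.1) for genes with at least 1 FPKM in at least 3 of 12 libraries, with Benjamini-Hochberg adjustment over all tested genes; a gene was called at an adjusted p under 0.05 and an absolute log2 value of at least 1. The fold scale understates changes of low genes. Code was tested on simulated data. Tables were handled in Python 3.11.15. Gene positions and exon overlaps were read from the WBcel235 annotation, the build also called ce11. Of 46726 IDs, 46364 were in the annotation and 43623 had a symbol there. Named genes were *alh-6*, the most extreme called genes measured at both stages (at least 5 FPKM at each), at 1 stage (under 1 FPKM at the other), or with opposite effects, the called member with the largest absolute term in each of 34 lists, and all vitellogenin and P5C genes. Genes of the kinds measured at both stages or at 1 stage also had to show no overlap of mutant and WT libraries. This was required at 1 stage or more, or at the measured stage. Their lack of overlap there was thus fixed by the choice. The other members named were chosen after their values were seen. The comparison and the lists were chosen with earlier results of these data known. Alternatives were 2 other pseudocounts, other filters, rescaling, a replicate block, limma-voom on recovered reads, other variance models and each library left out.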

Additional observations from a re-analysis of the deposited data

Results flagged for a closer look

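The test of the term, the difference between the 2 stage effects, drew attention to 40 named genes, given here with their terms on the log2(FPKM + 0.1) scale. Negative terms among molting, cuticle and hedgehog-related genes were those of *lpr-4* (−3.77), *lpr-6* (−3.53), *dpy-7* (−3.21), *wrt-10* (−2.77), *mlt-8* (−1.97), *dpy-10* (−1.91), *cut-2* (−1.89), *sqt-3* (−1.88), *bed-3* (−1.31) and *nas-36* (−1.12). Negative terms outside these groups were those of *rml-3* (−3.35), *nlp-34* (−3.34), *Y37A1B.7* (−3.29), *clec-229* (−2.77), *dao-2* (−2.76), *asp-12* (−2.12), *F41F3.3* (−1.92), *txdc-12.1* (−1.54), *nhr-44* (−1.48) and *alh-13* (−1.09). Yolk, muscle, sperm and collagen genes, with *nspb-4*, had positive terms, which were those of *vit-2* (1.02), *vit-5* (1.05), *vit-6* (1.10), *unc-54* (1.26), *msp-38* (1.74), *nspd-4* (1.85), *nspb-4* (2.98), *col-80* (1.65), *col-93* (1.76) and *col-142* (1.81). The other positive terms, among them that of the hedgehog-related *grl-21*, were those of *ugt-13* (1.26), *cyp-14A3* (1.95), *F59C6.16* (2.01), *fbxc-58* (2.03), *F53B2.8* (2.16), *grl-21* (2.27), *icmt-1* (2.50), *F56D6.9* (2.94), *C15B12.8* (3.14) and *gst-30* (3.88). In 29 of the 40 genes the call held under each setting that could test it, and in 11 it was lost under 1 or more. With 1 FPKM required at each stage, 9 of the 29 were not tested (*lpr-4*, *lpr-6*, *rml-3*, *Y37A1B.7*, *dpy-7*, *clec-229*, *grl-21*, *C15B12.8* and *gst-30*). *cyp-14A3* reached 1 FPKM in the 3 *alh-6* day 3 libraries alone, so that it entered the test through the group where it was high. *gst-30* and *C15B12.8* also needed these libraries to pass the filter, since too few others reached 1 FPKM.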

How the results depend on the processing

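Of 14497 genes, 422 were called for the term, and between 299 and 445 when 1 library was left out, with 180 to 306 negative terms; the lowest total was without *alh-6* L4 replicate 3. The fit of all libraries gave 444 calls for the L4 effect and 148 for the day 3 effect. Left-out libraries gave 294 to 459 calls for the L4 effect (294 without *alh-6* L4 replicate 3) and 123 to 175 for the day 3 effect. Requiring 1 FPKM in 3 libraries of each stage left 9945 genes tested and 199 calls for the term, 99 of them negative. With that filter 151 genes were called at L4 and 55 in day 3 adults. A pseudocount of 1 gave 246 calls at L4 and 41 in day 3 adults, and a spread per stage gave 89 in day 3 adults; the cause was not tested. Without the fold threshold 1070 genes passed for the term, 488 positive and 582 negative, 2305 at L4 and 570 in day 3 adults. The term calls were 316 with a pseudocount of 0.01, 330 with 1, 357 with no filter, 420 after rescaling and 349 by limma-voom on recovered reads. The term of *pycr-4*, 0.02 in the fit of all libraries and not called, changed sign under 4 left-out libraries and ranged from −0.0291 to 0.0619. With the replicate number as a block 377 genes were called (126 positive and 251 negative), 362 of them among the 422; same-numbered libraries had residual correlations of −0.069 to 0.139 and different-numbered ones of −0.104 to 0.110, so the numbers were not taken to pair the libraries. The call of *nhr-44* was lost in 16 of 20 settings, of *nas-36* in 15 of 20 and of *nspb-4* in 11 of 20; *vit-2* lost it in 4 of 21, and *vit-5* and *vit-6* in 2 of 21, without *alh-6* L4 replicate 3 or WT day 3 replicate 3. Terms of genes with fewer than 10 reads per library in day 3 adults are limited by depth.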

Other observations

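The terms that passed in gene groups not described above (adjusted p under 0.05, limma) are read against 3.37% of all tested genes with a positive and 4.01% with a negative term. Negative shares were above that background for collagen processing enzymes (0 positive and 2 negative of 8 tested), intestinal cathepsin and aspartyl proteases (1 positive and 4 negative of 21 tested), lysozymes (1 positive and 2 negative of 13 tested), cuticlins (0 positive and 2 negative of 17 tested) and astacin proteases (2 positive and 2 negative of 27 tested), which hold few genes each. Positive shares were above background too for the intestinal proteases (4.76%), lysozymes (7.69%) and astacin proteases (7.41%), on 1 or 2 genes each. *dpy-18* and *phy-2*, both prolyl 4-hydroxylases of collagen, had terms of −0.86 and −0.67. Of the proteases *asp-12*, *cpz-1*, *cpl-1* and *cpr-6* had negative terms, from −2.12 to −0.51, and *asp-17* had a positive one. Other counts were those of C-type lectins (4 positive and 5 negative of 87 tested), UDP-glucuronosyltransferases (4 positive and 2 negative of 50 tested), neuropeptides (2 positive and 1 negative of 94 tested), F-box genes (4 positive and 1 negative of 117 tested) and sperm genes other than major sperm proteins (3 positive and 0 negative of 62 tested). No list held 320 of the 422 called genes. Of the called genes, 216 (51.2%) were also called at L4 and 73 (17.3%) in day 3 adults, and 156 were called at neither stage. Of all 14497 tested genes, 444 were called at L4 and 148 in day 3 adults. The term is the difference of these stage effects in the same fit, so such an overlap is partly built in.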
